A study of Mus musculus with 30 samples.

Results

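MHC class II transcripts were followed in 30 whole B16 tumors taken on day 8 after engraftment, 10 of each type. The set was fixed by name and holds 7 genes, H2-Aa, H2-Ab1, H2-Eb1, H2-DMa, H2-DMb1, H2-DMb2 and Cd74, out of 39676 genes listed in the counts. A row was found for 6 of the 7, and all 6 passed the filter on low values (a mean count over the tumors of 10 or more), which left 15926 genes for testing. No row was found for Cd74, the gene of the invariant chain, and it was not analysed here.

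B16-GFP, B16-IFNA4 and B16-IFNA9 tumors grew from B16-F10 cells, a melanoma line of C57BL/6 origin, injected under the skin of female C57BL/6 mice. The lines had been transduced with retroviruses for GFP alone, or for mouse IFNα4 or IFNα9 together with GFP, driven by the viral promoter. All 3 lines, the control included, also carried herpes simplex virus glycoprotein B with CFP, and luciferase with a puromycin resistance gene. Each type is 1 sorted and drug-selected line, so differences between lines and differences between interferons cannot be told apart. The labels call the 10 tumors of a type biological replicates. The mice kept their own immune cells, and each library holds tumor and host RNA together, so that more cells of a type and more RNA per cell cannot be told apart.

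MHC class II molecules are pairs of an α and a β chain that carry peptides from endosomes to the cell surface, where CD4 T cells read them. Dendritic cells, B cells and macrophages make them constitutively, and many other cells do so once IFN-γ switches on the transactivator Ciita. Ciita has no DNA-binding domain of its own and docks on the RFX complex, CREB and NF-Y, which sit on the X and Y boxes upstream of class II genes. H2-Aa and H2-Ab1 encode the α and β chains of H2-A, H2-Eb1 encodes the β chain of H2-E, and H2-DMa with H2-DMb1 or H2-DMb2 forms H2-DM, the endosomal catalyst that exchanges the invariant chain's peptide for others. Mice of the C57BL/6 haplotype have a defective H2-Ea gene and lack H2-E at the cell surface.

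All 6 genes lie together on chromosome 17 (GENCODE M21 annotation of GRCm38). H2-DMa spans chr17:34119541-34139101, H2-DMb2 chr17:34143307-34151555, H2-DMb1 chr17:34153072-34160230, H2-Ab1 chr17:34257689-34269419 and H2-Eb1 chr17:34305867-34316674, all on the plus strand, and H2-Aa spans chr17:34282744-34287823 on the minus strand. The RefSeq table of promoter windows (GRCm38.p6, from 250 bases before to 50 bases after a start) held H2-Aa, H2-Eb1, H2-DMb1 and H2-DMb2 once each and H2-DMa with 2 starts, and none for H2-Ab1 or Cd74. The stretches below are shown because they hold the letters of the promoter elements described above, all upstream of the RefSeq start, which is base 34287823 for H2-Aa, 34305867 for H2-Eb1, 34145249 for H2-DMb2 and 34153191 for H2-DMb1. The RefSeq starts of the last 2 lie inside the GENCODE spans above. They are written 5′ to 3′ on the gene's own strand, and capitals mark, from left to right, an X box motif (AAC, any 2 bases, then ATGATG) or a cAMP response motif (TGACGTCA) and then a Y box motif (TGATTGG).
H2-Aa promoter, chr17:34287852-34287922, minus strand: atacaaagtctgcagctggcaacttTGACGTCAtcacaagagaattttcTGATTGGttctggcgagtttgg
H2-Eb1 promoter, chr17:34305753-34305827, plus strand: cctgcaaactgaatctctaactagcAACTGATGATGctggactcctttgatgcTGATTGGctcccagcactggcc
H2-DMb2 promoter, chr17:34145103-34145178, plus strand: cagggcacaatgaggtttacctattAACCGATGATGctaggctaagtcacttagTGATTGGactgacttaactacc

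The capitals are separated by 16 bases in H2-Aa, by 17 in H2-Eb1 and by 18 in H2-DMb2. H2-DMb1 held the X box motif 92 bases and the Y box motif 63 bases before its RefSeq start, inside the GENCODE span and overlapping an annotated exon, so it is not printed, also with 18 bases between them. Neither window of H2-DMa held any of the 3 motifs. Searched on both strands of all 32851 windows, the X box motif was in 0.137%, the cAMP response motif in 1.79% and the Y box motif in 7.82%. An X box motif with a Y box motif within 30 bases on the same strand, without overlap, was in 4 windows (0.0122%), those of H2-Eb1, H2-DMb1, H2-DMb2 and H2-Ob. The motif letters were chosen after these windows had been read, so the shares describe the letters and test nothing.

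Reads of 50 bases cannot separate all of these genes. Of the 50-base stretches in H2-DMb1 transcripts, 22.7% also occur in H2-DMb2, and 25.9% of those in H2-DMb2 occur in another gene, mostly H2-DMb1. H2-DMa shares 8.43% of its stretches with the opposite strand of Brd2, and whether the counting used strand is not given in the sources used here. The share was 0.514% for H2-Aa and 0 for H2-Ab1 and H2-Eb1.

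Total counts ran from 14598517 to 19788383 per tumor. Values are given as CPM, the counts scaled to an equal library total, after TMM scaling of the libraries, and log2 fold changes come from edgeR's quasi-likelihood test over all 30 tumors, with p adjusted by the Benjamini-Hochberg method over all 15926 genes. A gene was called higher or lower at an adjusted p under 0.05. B16-GFP tumor 7 stood apart in its type, with the smallest total count, a TMM factor of 0.768 and the highest sum of the melanocyte genes Tyr, Tyrp1 and Mitf, 22818 CPM against a median of 8969 CPM. B16-IFNA9 tumor 10 likewise had the highest melanocyte sum of its type, 8916 CPM against a median of 4529.6 CPM. Calls of class II genes that changed without either tumor are given beside the result, as are counts of marker genes that moved by over 1.5 times.

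Class II transcripts were abundant in all 3 tumor types and highest in B16-IFNA9 tumors. The sum over the 6 genes had a median of 926 CPM in B16-GFP tumors (range 397 to 1436), 1217 CPM in B16-IFNA4 tumors (range 1128 to 1555) and 1647 CPM in B16-IFNA9 tumors (range 804 to 2183). The ranges of all 3 types overlapped. On the scale of CPM per kilobase of exon, H2-Eb1 was the most abundant, with a mean of 123 ± 47.7 (SD, n = 10) in B16-GFP, 158 ± 25.0 in B16-IFNA4 and 191 ± 44.2 in B16-IFNA9 tumors. It exceeded H2-Ab1 per kilobase in 10, 9 and 10 of the 10 tumors of these types, although its partner chain is defective in this haplotype. The length used was that of all annotated exons of a gene merged, and the order per kilobase depends on it. It was 1944 bases for H2-Eb1, 2568 for H2-Ab1 and 3798 for H2-Aa. In counts H2-Aa was the highest, with a mean of 8750 over the tumors, against 5817 for H2-Ab1 and 5253 for H2-Eb1. The pseudogene H2-Ea-ps had 0 counts in all 30 tumors, which allows up to 3 counts or 0.153 to 0.268 CPM per tumor.

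H2-Aa and H2-Ab1 could not be placed in a fixed order per kilobase. H2-Aa was the higher of them in 8 B16-GFP, 3 B16-IFNA4 and 5 B16-IFNA9 tumors, with median ratios of 1.13, 0.983 and 0.994. H2-DMb1 followed well below, with a mean of 23.8, 36.6 and 47.5 CPM per kilobase in the 3 types, and exceeded H2-DMb2 and H2-DMa in every tumor. H2-DMb2 (8.01, 12.0 and 16.3) and H2-DMa (7.91, 8.89 and 14.4) were the lowest, and their order was mixed in B16-GFP tumors, where H2-DMa was the higher in 5 of 10.

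**Figure D1:**
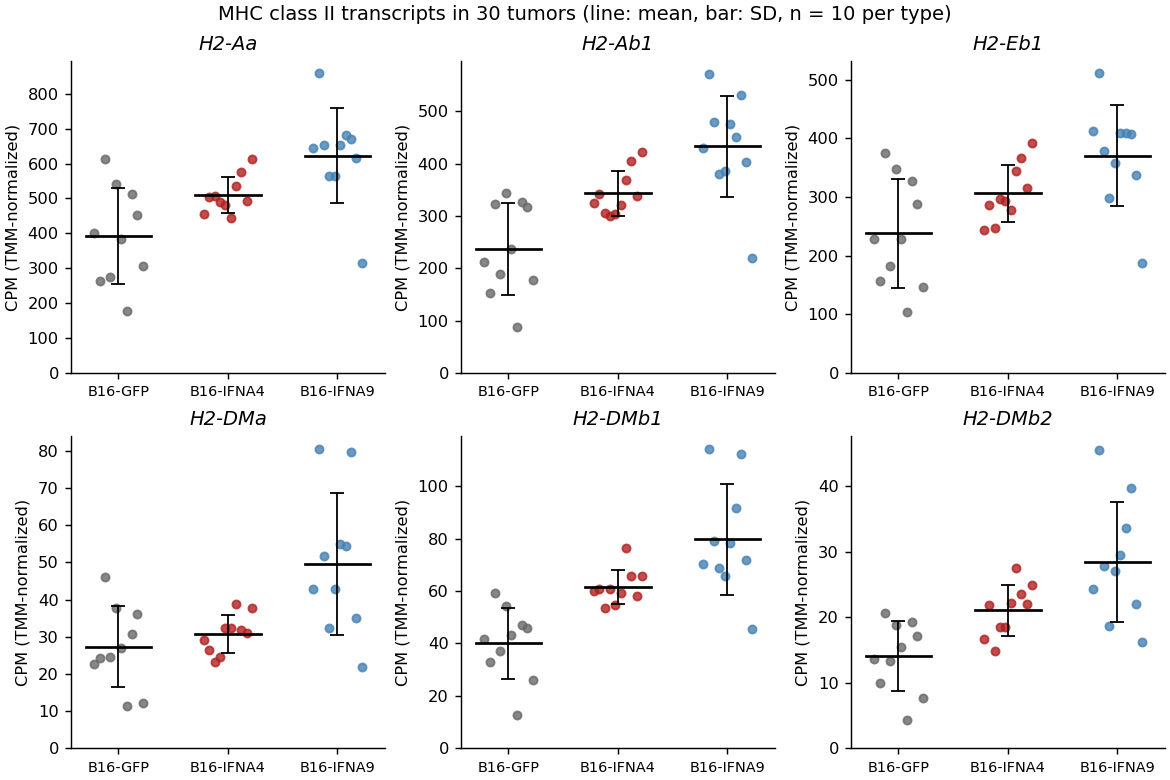
CPM of the 6 MHC class II genes in each tumor, 1 panel per gene with a linear axis from 0, points for tumors (in replicate order from left to right) and lines and bars for the mean and SD of 10 tumors. The low point at the right of each B16-IFNA9 group is tumor 10, B16-GFP tumor 7 is the lowest of its type in every panel, and B16-IFNA4 tumors lie closest together.

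The first comparison set B16-IFNA4 against B16-GFP tumors, asking which transcripts differ when tumor cells secrete IFNα4. Of the 6 class II genes, 4 were called higher, H2-DMb1, H2-DMb2, H2-Ab1 and H2-Aa, and none lower. Over all genes tested, 31.3% were called higher and 34.1% lower. The median log2 fold change of the 6 genes was 0.46, against 0.01 over all genes. None of the 6 separated B16-IFNA4 from B16-GFP tumors without overlap, which 8.5% of all genes did in the direction of higher levels.

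H2-Ab1, the β chain of H2-A, ran from 87.9 to 344 CPM in B16-GFP tumors (median 224) and from 300.1 to 423 CPM in B16-IFNA4 tumors (median 331). Every B16-IFNA4 tumor was above the B16-GFP median, and 3 were above every B16-GFP tumor. Its log2 fold change was 0.54 ± 0.18 (SE) with an edgeR adjusted p of 0.00864. H2-Aa, the α chain, ran from 177 to 612 CPM (median 392.1) in B16-GFP tumors and from 444 to 612 CPM (median 499) in B16-IFNA4 tumors. Here 1 B16-IFNA4 tumor passed the highest B16-GFP tumor, and the log2 fold change of 0.38 ± 0.16 had an edgeR adjusted p of 0.0424. This call was weak: it was lost in 16 of the 30 fits that each left out 1 tumor, those without B16-GFP tumor 1, 2, 4, 6, 7 or 10, B16-IFNA4 tumor 2, 3, 7, 8 or 10, or B16-IFNA9 tumor 1, 4, 5, 6 or 9, with log2 fold changes of 0.31 to 0.47 and edgeR adjusted p up to 0.0909 over all 30.

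H2-Eb1 ran from 104 to 375 CPM (median 228) in B16-GFP tumors and from 243 to 391 CPM (median 295) in B16-IFNA4 tumors. The log2 fold change of 0.36 ± 0.18 was not called, at an edgeR adjusted p of 0.077, and its interval of 0.01 to 0.72 overlaps that of H2-Ab1, 0.19 to 0.88. It was called without B16-GFP tumor 3, 5 or 8, the tumors with the 3 highest H2-Eb1 levels of their type, at log2 fold changes of 0.46, 0.44 and 0.42.

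Of the H2-DM genes, H2-DMb1 and H2-DMb2 were called and H2-DMa was not. H2-DMb1 ran from 12.8 to 59.1 CPM in B16-GFP tumors (median 42.5) and from 53.4 to 76.6 CPM in B16-IFNA4 tumors (median 60.3), and 7 of the 10 B16-IFNA4 tumors were above every B16-GFP tumor. Its log2 fold change of 0.62 ± 0.17 had an edgeR adjusted p of 0.00266. H2-DMb2 ran from 4.28 to 20.6 CPM (median 14.5) and from 14.8 to 27.4 CPM (median 21.9) in the same types, a log2 fold change of 0.59 ± 0.21 with an edgeR adjusted p of 0.0139. These genes share sequence, and the part of shared reads in their likeness was not tested. H2-DMa, the α chain of H2-DM, ran from 11.3 to 46.2 CPM (median 25.7) and from 23.1 to 38.7 CPM (median 31.3). No B16-IFNA4 tumor passed the highest B16-GFP tumor in H2-DMa, and the log2 fold change of 0.17 ± 0.21 was not called at an edgeR adjusted p of 0.50, with an interval of -0.25 to 0.59 that overlaps those of H2-DMb1 (0.28 to 0.96) and H2-DMb2 (0.18 to 0.99).

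Brd2, on the strand opposite H2-DMa, was more abundant than H2-DMa. It had a mean of 226 ± 29.3 CPM in B16-GFP, 315 ± 22.2 CPM in B16-IFNA4 and 296 ± 16.8 CPM in B16-IFNA9 tumors, with log2 fold changes of 0.48 in B16-IFNA4 and 0.39 in B16-IFNA9 against B16-GFP tumors. Its part in the H2-DMa counts was not tested.

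The second comparison set B16-IFNA9 against B16-GFP tumors. All 6 class II genes were called higher, where 26.9% of all genes were called higher and 28.9% lower. The median log2 fold change of the 6 was 0.87, against -0.0031 over all genes. The largest changes were those of H2-DMb2 and H2-DMb1, at 1.02 ± 0.21 and 1.00 ± 0.17, and the smallest those of H2-Aa and H2-Eb1, at 0.66 ± 0.16 and 0.64 ± 0.18. As in the first comparison, none of the 6 separated the types without overlap, which 4.44% of all genes did in that direction.

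H2-Ab1 ran from 220.3 to 572 CPM in B16-IFNA9 tumors, the median being 440.5. In 9 of the 10 it was above every B16-GFP tumor, and tumor 10 was below the B16-GFP median. The log2 fold change of 0.87 ± 0.18 had an edgeR adjusted p of 0.000136. H2-Aa ran from 313 to 859 CPM (median 648, edgeR adjusted p 0.00108) and H2-Eb1 from 187 to 512 CPM (median 393, edgeR adjusted p 0.00369). For these genes 7 and 6 tumors were above every B16-GFP tumor.

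H2-DMa ran from 21.9 to 80.6 CPM in B16-IFNA9 tumors, with a median of 47.3 and the widest spread of the 6 genes, at a coefficient of variation of 38.5%. Its log2 fold change against B16-GFP tumors was 0.86 ± 0.22 with an edgeR adjusted p of 0.00121. H2-DMb1 ran from 45.6 to 114 CPM (median 75.0, edgeR adjusted p 2.4e-05) and H2-DMb2 from 16.2 to 45.6 CPM (median 27.4, edgeR adjusted p 0.000133). In 9 and 8 tumors these genes were above every B16-GFP tumor, and the calls of all 6 genes were kept in each of the 30 fits that left out 1 tumor.

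The third comparison set B16-IFNA9 against B16-IFNA4 tumors, which both secrete a type I interferon. H2-DMa was the 1 class II gene of 6 called, and it was higher in B16-IFNA9 tumors, where 10.5% of all genes were called higher and 7.25% lower. Its log2 fold change was 0.69 ± 0.21 with an edgeR adjusted p of 0.0225, and 7 of 10 B16-IFNA9 tumors were above every B16-IFNA4 tumor while 1, tumor 10, was below all of them. The call was lost in some fits: without B16-IFNA9 tumor 2 the log2 fold change was 0.59 (edgeR adjusted p 0.054), and without tumor 8 it was also 0.59 (edgeR adjusted p 0.0514). With the replicate number as a block it was 0.61 (edgeR adjusted p 0.0661) and not called. None of the 6 genes separated these types without overlap, which 2.08% of all genes did in that direction.

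The other 5 genes had log2 fold changes of 0.28 to 0.44, none called. The intervals were -0.03 to 0.61 for H2-Aa, -0.01 to 0.68 for H2-Ab1, -0.08 to 0.63 for H2-Eb1, 0.04 to 0.71 for H2-DMb1 and 0.04 to 0.84 for H2-DMb2, and their edgeR adjusted p ran from 0.136 to 0.316. In each of the 5 genes, 5 to 7 B16-IFNA9 tumors were above the highest B16-IFNA4 tumor. H2-DMb1 was called without B16-GFP tumor 7, at 0.36 (edgeR adjusted p 0.0428). In a fit of only these types of tumor, H2-Ab1 (0.33), H2-DMb1 (0.37) and H2-DMb2 (0.43) were called as well, with edgeR adjusted p of 0.04, 0.0258 and 0.046, for 4 of the 6 genes in all.

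**Figure D2:**
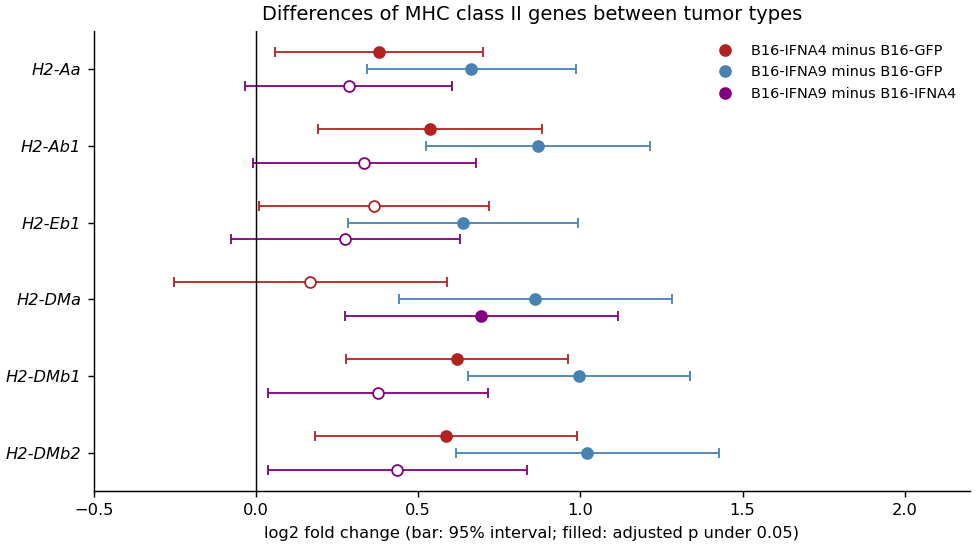
Log2 fold changes of the 6 class II genes in the 3 comparisons, with bars for the 95% interval (1.96 standard errors) and filled points for an adjusted p under 0.05. The B16-IFNA9 minus B16-GFP points lie between 0.64 and 1.02 and are all filled, the B16-IFNA4 minus B16-GFP points lie between 0.17 and 0.62 with 4 filled, and H2-DMa alone is filled in the comparison of the interferon types.

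Ratios of counts within a tumor do not depend on library scaling, and they show where the genes moved unequally. H2-Aa lagged behind its partner H2-Ab1. The H2-Aa to H2-Ab1 count ratio had a median of 1.67 in B16-GFP tumors (range 1.42 to 2.01), 1.45 in B16-IFNA4 tumors (1.38 to 1.66) and 1.47 in B16-IFNA9 tumors (1.26 to 1.53). On the log2 scale the mean was 0.17 lower in B16-IFNA4 tumors (difference -0.17, permutation adjusted p = 0.0153) and 0.22 lower in B16-IFNA9 tumors (difference -0.22, permutation adjusted p = 0.00354), and between the interferon types it differed by -0.05 (permutation adjusted p = 0.284). The ranges overlapped in each comparison.

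H2-Eb1 behaved like H2-Aa. Its count ratio to H2-Ab1 had a median of 1.005 in B16-GFP, 0.915 in B16-IFNA4 and 0.856 in B16-IFNA9 tumors, and the log2 differences from B16-GFP tumors were -0.18 (permutation adjusted p = 0.0157) and -0.23 (permutation adjusted p = 0.00354). Thus H2-Ab1 rose more than both H2-Aa and H2-Eb1 in either interferon type.

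The ratio of H2-DMa to H2-Ab1 had its lowest mean in B16-IFNA4 tumors. Its mean log2 value was -3.13 ± 0.34 (SD, n = 10) in B16-GFP, -3.49 ± 0.18 in B16-IFNA4 and -3.18 ± 0.27 in B16-IFNA9 tumors. Single tumors overlapped. The B16-IFNA4 range of -3.73 to -3.23 lay inside the B16-GFP range of -3.86 to -2.65, and that of B16-IFNA9 tumors was -3.56 to -2.74. The differences were -0.36 for B16-IFNA4 minus B16-GFP and 0.31 for B16-IFNA9 minus B16-IFNA4 (permutation adjusted p = 0.0142 for each), and -0.05 for B16-IFNA9 minus B16-GFP (permutation adjusted p = 0.701). H2-DMb1 to H2-Ab1 and H2-DMb2 to H2-DMb1 differed by at most 0.12 in any comparison, with permutation adjusted p of 0.407 or more. These last ratios were added after the data were examined.

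**Figure D3:**
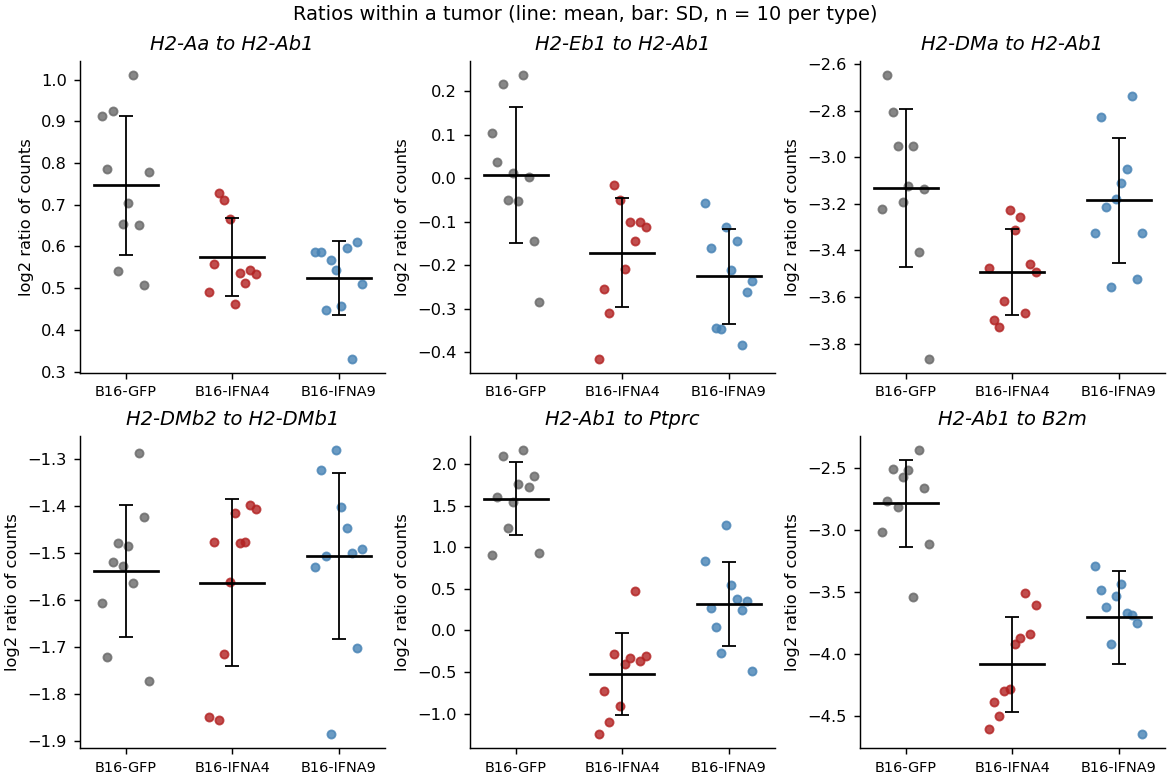
Log2 ratios of counts within each tumor for 6 pairs of genes, with points for tumors and lines and bars for the mean and SD of 10 tumors per type. B16-GFP means are the highest in the ratios of H2-Aa and H2-Eb1 to H2-Ab1, B16-IFNA4 tumors have the lowest mean ratio of H2-DMa to H2-Ab1, and the means of H2-Ab1 to Ptprc and to B2m are lower in both interferon types than in B16-GFP tumors, with overlap of single tumors in all but H2-Ab1 to Ptprc in B16-IFNA4 tumors.

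H2-Ab1 rose less than the leukocyte gene Ptprc and the class I gene B2m did. Ptprc, the common leukocyte antigen CD45, had a mean of 80.6 ± 29.5 CPM in B16-GFP, 507 ± 140.1 CPM in B16-IFNA4 and 354 ± 106 CPM in B16-IFNA9 tumors. The log2 ratio of H2-Ab1 to Ptprc was 1.58 ± 0.44 (SD, n = 10) in B16-GFP, -0.52 ± 0.49 in B16-IFNA4 and 0.32 ± 0.51 in B16-IFNA9 tumors. It was lower by 2.10 in B16-IFNA4 tumors (difference -2.10, permutation adjusted p = 0.00024), where all 10 tumors were below every B16-GFP tumor, and lower by 1.27 in B16-IFNA9 tumors (difference -1.27, permutation adjusted p = 0.00024), where 9 of 10 were. B16-IFNA9 exceeded B16-IFNA4 tumors by 0.84 (permutation adjusted p = 0.00384). H2-Ab1 thus rose against B16-GFP in CPM and fell relative to Ptprc in the same tumors. Log2 fold changes of the 4 leukocyte genes ran from 0.89 to 2.65 (median 1.51) in B16-IFNA4 and from 0.75 to 2.14 (median 0.95) in B16-IFNA9 tumors. Those of H2-Ab1 were 0.54 and 0.87, so in B16-IFNA9 tumors H2-Ab1 did not rise less than every leukocyte gene.

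All 7 class I genes compared, H2-K1, H2-D1, B2m, Tap1, Tap2, Tapbp and Nlrc5, were called higher in both interferon types, beside 31.3% and 26.9% of all genes, with median log2 fold changes of 1.92 in B16-IFNA4 and 1.68 in B16-IFNA9 tumors. Nlrc5, the class I transactivator related to Ciita, rose by 2.31 and 2.10 on the log2 scale. The log2 ratio of H2-Ab1 to B2m, the class I light chain, was added after the data were examined. It was -2.78 ± 0.35 in B16-GFP, -4.08 ± 0.38 in B16-IFNA4 and -3.70 ± 0.37 in B16-IFNA9 tumors, differences of -1.30 and -0.92 from B16-GFP (permutation adjusted p = 0.00018 for each), with 9 of 10 B16-IFNA4 and 6 of 10 B16-IFNA9 tumors below every B16-GFP tumor, and 0.38 between the interferon types (permutation adjusted p = 0.122). Between the interferon types 2 of the 7 class I genes, H2-K1 and H2-D1, were called lower in B16-IFNA9 tumors, by log2 fold changes of -0.68 and -0.59, beside 7.25% of all genes.

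Of the 4 other class II region genes listed, H2-Ea-ps had no counts, and the 3 tested were scarce. All 3 were called higher in both interferon types, beside 31.3% of all genes in B16-IFNA4 and 26.9% in B16-IFNA9 tumors. H2-Oa and H2-Ob encode H2-O, the inhibitor of H2-DM, and H2-Eb2 is a further β chain gene of the region. H2-Ob had a mean of 2.47 ± 1.20 CPM in B16-GFP, 5.05 ± 1.25 CPM in B16-IFNA4 and 5.73 ± 1.37 CPM in B16-IFNA9 tumors, log2 fold changes of 1.02 and 1.20. H2-Oa had means of 0.519, 0.984 and 1.01 CPM, log2 fold changes of 0.91 and 0.95, and the first was not called without B16-IFNA4 tumor 10 (0.76, edgeR adjusted p 0.0656). H2-Eb2 had a mean of 0.563, 2.35 and 1.29 CPM, log2 fold changes of 2.03 and 1.16 against B16-GFP. Of the 3 genes it was the 1 called between the interferon types, where 7.25% of all genes were called lower. It was lower in B16-IFNA9 than in B16-IFNA4 tumors (-0.87, edgeR adjusted p 0.0475), opposite in sign to the 6 class II genes, and this call was lost with library totals in place of TMM (edgeR adjusted p 0.0636), with no filter (0.0767), with the replicate number as a block (0.0712), and without any 1 of 18 tumors, B16-GFP tumor 1, 4, 6, 8 or 9, B16-IFNA4 tumor 1, 2, 5, 7, 8 or 10, or B16-IFNA9 tumor 1, 2, 4, 6, 7, 9 or 10 (log2 fold changes from -0.89 to -0.72).

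Of 7 genes tested for factors that bind class II promoters, 2 were called higher and 3 lower in each interferon type against B16-GFP, shares near those of all genes (31.3% higher and 34.1% lower in B16-IFNA4, 26.9% and 28.9% in B16-IFNA9 tumors). Ciita had no row and was not analysed here. Rfx5, the large subunit of the RFX complex, ran from a mean of 13.0 ± 2.39 CPM in B16-GFP to 20.99 ± 1.80 CPM in B16-IFNA4 and 25.4 ± 3.04 CPM in B16-IFNA9 tumors. Its log2 fold changes were 0.70 (edgeR adjusted p 2.19e-07), 0.97 (edgeR adjusted p 9.66e-10) and, between the interferon types, 0.27 (edgeR adjusted p 0.0395). The last was not called with DESeq2 size factors (edgeR adjusted p 0.0502), library totals (0.0704), no filter (0.0902) or the replicate number as a block (0.0714), or without any 1 of 10 tumors, B16-IFNA4 tumor 3, 4, 6, 8, 9 or 10 or B16-IFNA9 tumor 2, 3, 8 or 10 (log2 fold changes from 0.23 to 0.27). Nfya, the NF-Y subunit that reads the Y box letters, rose by 0.32 and 0.37, whereas its partners Nfyb (-0.51 and -0.43) and Nfyc (-0.45 and -0.37) and the RFX subunit Rfxap (-0.59 and -0.41) fell. Rfxank and Creb1 were not called in any comparison.

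Genes that process antigen or turn class II molecules over were mixed as well. Of 6 endosomal enzymes tested, 4 were called higher and 1 lower in each interferon type, where 31.3% of all genes were called higher and 34.1% lower in B16-IFNA4 and 26.9% and 28.9% in B16-IFNA9 tumors. Ctss, cathepsin S, which trims the invariant chain, rose from a mean of 248 ± 80.6 CPM in B16-GFP to 773 ± 173 CPM in B16-IFNA4 and 589.8 ± 118 CPM in B16-IFNA9 tumors, log2 fold changes of 1.64 and 1.25. Sppl2a, the protease that clears the last invariant chain fragment from membranes, rose by 0.83 and 0.64, and Ctsh, an aminopeptidase, by 0.57 and 0.49. Lgmn, legumain, was called in B16-IFNA4 tumors (0.47) and Ctsz in B16-IFNA9 tumors (0.35). Ctsd, cathepsin D, fell by 0.51 and 0.39 on the log2 scale. March1, the ligase that sends surface class II and Cd86 to degradation, rose by 0.74 and 1.05, and its relative March8 was called lower in B16-IFNA9 tumors (-0.14) and not called in B16-IFNA4 tumors (-0.11). The call of March8 was lost without B16-GFP tumor 3 or 7 or B16-IFNA9 tumor 1, 3, 4, 5 or 6, with edgeR adjusted p up to 0.0701. In B16-IFNA4 tumors March8 was called lower without B16-GFP tumor 1, 2 or 9 or B16-IFNA9 tumor 1, 4, 5, 6 or 9. Cd86 and Cd40, which costimulate T cells, rose by 1.25 and 1.63 in B16-IFNA4 and by 1.08 and 1.25 in B16-IFNA9 tumors.

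Of 6 genes of IFN-γ signalling tested, 5 were called higher in B16-IFNA4, and 4 higher and 1 lower in B16-IFNA9 tumors, beside 31.3% of all genes higher in B16-IFNA4 and 26.9% higher and 28.9% lower in B16-IFNA9 tumors. Ifng itself had no row. Irf1, an IFN-γ-induced activator of a Ciita promoter, had a mean of 45.7 ± 17.8 CPM in B16-GFP, 146 ± 23.5 CPM in B16-IFNA4 and 262 ± 122 CPM in B16-IFNA9 tumors, and like H2-DMa it was higher in B16-IFNA9 than in B16-IFNA4 tumors (log2 fold change 0.85, edgeR adjusted p 0.00795). In that comparison 1 of the 6 was called higher, Irf1, and 1 lower, beside 10.5% and 7.25% of all genes. Without B16-GFP tumor 7 or B16-IFNA9 tumor 8, 2 were called lower.

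**Figure D4:**
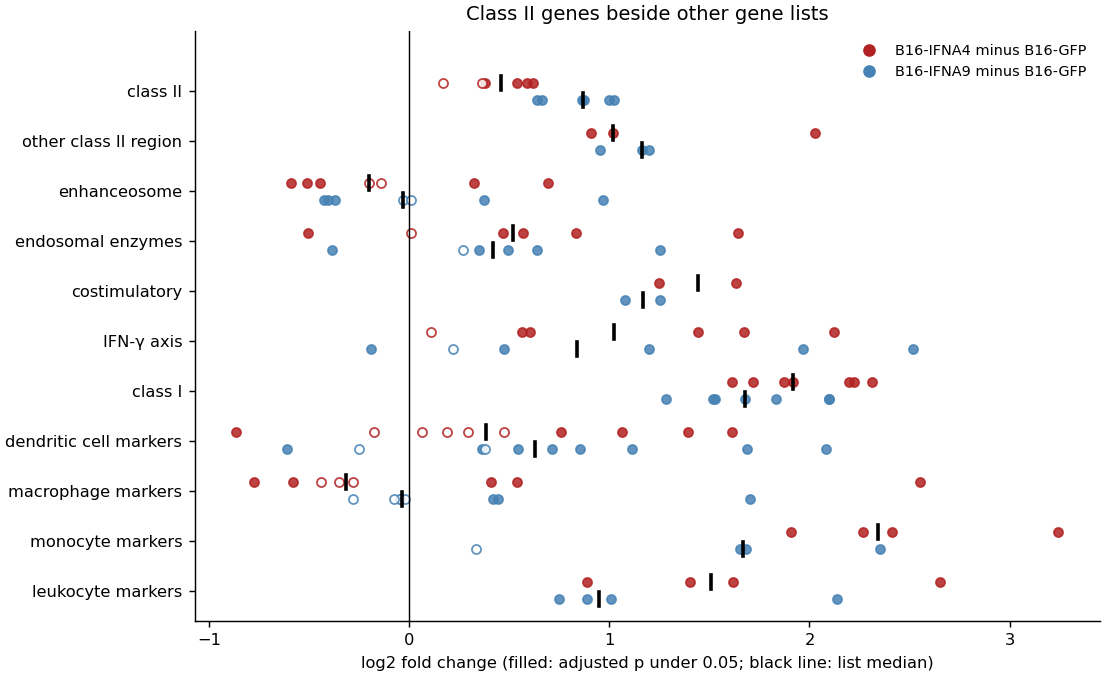
Log2 fold changes against B16-GFP tumors of the class II genes and of 10 other gene lists, 1 point per gene, filled for an adjusted p under 0.05, with a black line at each list's median. Class II medians are 0.46 and 0.87, those of class I genes 1.92 and 1.68, and those of macrophage markers -0.32 and -0.03.

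The part of the cells that carry class II molecules in these results was not tested, and the levels of their markers follow. Among 10 conventional dendritic cell markers, 4 were called higher and 1 lower in B16-IFNA4 and 7 higher and 1 lower in B16-IFNA9 tumors, beside 31.3% higher and 34.1% lower over all genes in B16-IFNA4 and 26.9% and 28.9% in B16-IFNA9 tumors, so that the share called higher in B16-IFNA4 tumors was near that of all genes. Their sum ran from 67.0 to 359 CPM in B16-GFP, from 166 to 231 CPM in B16-IFNA4 and from 176 to 308 CPM in B16-IFNA9 tumors. Their log2 fold changes ran from -0.87 to 1.61 (median 0.38) in B16-IFNA4 and from -0.61 to 2.08 (median 0.63) in B16-IFNA9 tumors. Between the interferon types they ran from -0.43 to 0.69 (median 0.14). Of the 10, 1 was called higher there, Xcr1, and 0 lower, beside 10.5% and 7.25% of all genes. Fits that left out 1 tumor gave 0 to 2 higher and 0 to 1 lower. Xcr1, of cross-presenting dendritic cells, had a mean of 2.51 ± 1.41 CPM, 6.63 ± 1.52 CPM and 10.7 ± 2.45 CPM in the 3 types. Its log2 fold changes were 1.39 and 2.08, the second being the largest of the list, and 0.69 between the interferon types (edgeR adjusted p 0.0303). That last call was lost without B16-IFNA4 tumor 5, 6 or 8 or B16-IFNA9 tumor 2 or 3, with log2 fold changes from 0.62 to 0.66.

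Among 8 macrophage markers, 3 were called higher and 2 lower in B16-IFNA4 tumors, and 3 higher in B16-IFNA9 tumors, near the shares of all genes except for the absence of lower calls in B16-IFNA9 tumors. Those shares were 31.3% higher and 34.1% lower in B16-IFNA4 and 26.9% and 28.9% in B16-IFNA9 tumors. The macrophage counts moved with single tumors. In B16-IFNA4 tumors 5 markers were lower without B16-GFP tumor 7 and 4 without B16-IFNA4 tumor 1. In B16-IFNA9 tumors 1 marker was higher without B16-GFP tumor 2 or 6 or B16-IFNA9 tumor 2, 3, 6 or 7. Csf1r had a mean of 159 ± 60.4 CPM in B16-GFP, 131 ± 13.2 CPM in B16-IFNA4 and 154 ± 31.2 CPM in B16-IFNA9 tumors and was not called against B16-GFP tumors, but was called lower in B16-IFNA4 tumors without B16-GFP tumor 7 (-0.38, edgeR adjusted p 0.00973). The macrophage sum ran from 449.6 to 2013 CPM in B16-GFP, from 1082 to 1819 CPM in B16-IFNA4 and from 1027 to 1890.2 CPM in B16-IFNA9 tumors. All 4 monocyte markers were called higher in B16-IFNA4 and 3 of 4 in B16-IFNA9 tumors, beside 31.3% and 26.9% of all genes. Their sum ran from 125 to 368 CPM in B16-GFP, from 946 to 1842 CPM in B16-IFNA4 and from 508 to 1177 CPM in B16-IFNA9 tumors. All 5 plasmacytoid dendritic cell markers were called higher in B16-IFNA4 and 4 of 5 in B16-IFNA9 tumors, beside the same shares of all genes. Their sum in the 3 types ran from 80.5 to 164 CPM, from 184 to 221 CPM and from 149 to 243 CPM. Between the interferon types, 3 of 4 monocyte and 3 of 5 plasmacytoid dendritic cell markers were called lower in B16-IFNA9 tumors and 0 higher. Of all genes, 7.25% were called lower there and 10.5% higher.

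The B cell markers Ms4a1 and Cd79a were near 0. Ms4a1 had means of 0.13, 0.651 and 0.252 CPM in B16-GFP, B16-IFNA4 and B16-IFNA9 tumors, and Cd79a of 0.539, 0.332 and 0.31 CPM. Of 3 B cell genes that passed the filter, 2 were called higher in each interferon type, beside 31.3% and 26.9% of all genes, Pax5 by 3.95 and 2.54 and Fcer2a by 1.16 and 1.57, and Cd79b was not. The first Fcer2a call was lost without B16-GFP tumor 4 (1.05) or B16-IFNA4 tumor 10 (0.95). The sum over 7 B cell genes ran from 1.07 to 3.56 CPM in B16-GFP, from 4.66 to 10.2 CPM in B16-IFNA4 and from 2.50 to 6.17 CPM in B16-IFNA9 tumors.

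Of the other marker lists, all 4 leukocyte and all 4 NK cell genes were called higher in both interferon types, and 7 and 6 of 7 T cell genes in B16-IFNA4 and B16-IFNA9 tumors. All 3 melanocyte genes were called lower in both. Keratinocyte genes (3 tested) gave 2 and 0 higher, fibroblast genes (4) 2 and 1 higher, neutrophil genes (4) 1 higher and 2 lower in each, endothelial genes (4) 1 and 0 higher and 2 lower in each, and skeletal muscle genes (4) 0 in B16-IFNA4 and 2 lower in B16-IFNA9 tumors. Over all genes 26.9% to 34.1% were called in each direction, and nothing is read from 1 or 2 calls in lists of 3 or 4 genes. In fits that left out 1 tumor, the lower neutrophil genes in B16-IFNA4 tumors were 0 without B16-GFP tumor 1 and 1 without B16-GFP tumor 10 or B16-IFNA4 tumor 5, 6, 8 or 9. The higher fibroblast genes were 1 in B16-IFNA4 tumors without B16-IFNA4 tumor 9, and in B16-IFNA9 tumors 0 without B16-IFNA9 tumor 4 and 2 without B16-GFP tumor 3, 4 or 9 or B16-IFNA9 tumor 5. In B16-IFNA9 tumors the lower muscle genes were 4 without B16-GFP tumor 7 or B16-IFNA9 tumor 5 and 1 without B16-GFP tumor 3, and 1 keratinocyte gene was higher without B16-GFP tumor 5 or B16-IFNA9 tumor 10. The part of these cells in the class II results was not tested.

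Class II genes varied together among tumors of a type. Over the 15 pairs of genes, Pearson's r of log2 CPM ran from 0.85 to 0.98 in B16-GFP tumors, from 0.39 to 0.84 in B16-IFNA4 tumors and from 0.81 to 0.98 in B16-IFNA9 tumors, with 10 tumors in each and libraries shared by both genes of a pair. The spread itself differed. The SD of log2 CPM was 0.56 to 0.70 over the 6 genes in B16-GFP, 0.14 to 0.27 in B16-IFNA4 and 0.37 to 0.58 in B16-IFNA9 tumors. The median SD over all 15926 genes also differed, at 0.41, 0.25 and 0.28, in the 3 types in that order, so that genes in general varied most among B16-GFP tumors.

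Single tumors held the ends of these ranges. B16-GFP tumor 7 was the lowest of its type in all 6 genes and B16-IFNA9 tumor 10 the lowest of its type in all 6, whereas B16-IFNA9 tumor 2 was the highest of its type in all 6. B16-GFP tumor 3 was the highest of its type in 5. The tumors with the lowest class II levels were also low in many other markers. Of 14 marker lists, B16-GFP tumor 7 had the lowest sum of its type in 12 and B16-IFNA9 tumor 10 in 7, and each had the highest melanocyte sum. B16-IFNA9 tumor 10 was above the median of its type in NK cell (51.6 against 50.8 CPM) and B cell genes (4.73 against 4.30 CPM). Their conventional dendritic cell and macrophage sums were the lowest of their types, 67.0 and 449.6 CPM in B16-GFP tumor 7 and 176 and 1027 CPM in B16-IFNA9 tumor 10, and the highest dendritic cell sum of its type, 308 CPM, was that of B16-IFNA9 tumor 2. Keratinocyte sums were also the lowest in their types, at 678 CPM in B16-GFP tumor 7 against a median of 3337 CPM and at 1234 CPM in B16-IFNA9 tumor 10 against a median of 4436 CPM.

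The relation of H2-Ab1 to cell type genes was computed within each type over 10 tumors, 18 relations in all. In B16-GFP tumors H2-Ab1 followed Flt3, the receptor that sustains dendritic cells, with Pearson's r = 0.92 (permutation adjusted p = 0.00468) and Spearman's rho = 0.85 (permutation adjusted p = 0.025). Without the 2 tumors farthest from the Flt3 median r was 0.78. It also followed Csf1r, the receptor that sustains macrophages, with r = 0.91 (permutation adjusted p = 0.00468), rho = 0.87 (permutation adjusted p = 0.025), and r = 0.68 without the 2 farthest tumors. The relation with Ptprc, r = 0.82 (permutation adjusted p = 0.0492) and rho = 0.64 (permutation adjusted p = 0.18), rested on tumors 2 and 7, without which r was 0.15. Genes of other host cells followed class II levels to different degrees in B16-GFP tumors. The r with the mean of the 6 genes ran from 0.40 (Batf3) to 0.90 (Flt3) over the 10 conventional dendritic cell genes and from 0.60 (Mertk) to 0.94 (C1qb) over the 8 macrophage genes. It ran from 0.80 (Cdh5) to 0.92 (Tek) over the 4 endothelial genes, from 0.81 (Pdgfrb) to 0.89 (Pdgfra) over the 4 fibroblast genes, from 0.67 (Ckm) to 0.87 (Myh4) over the 4 muscle genes, from 0.73 (Krt10) to 0.89 (Krt14) over the 3 keratinocyte genes and from -0.94 (Tyr) to -0.76 (Mitf) over the 3 melanocyte genes. Among the other leukocyte lists it ran from 0.75 (Ptprc) to 0.96 (Coro1a) over the 4 leukocyte genes, from 0.01 (Chil3) to 0.93 (Ly6c2) over the 4 monocyte genes, from 0.54 (Klk1) to 0.89 (Irf8) over the 5 plasmacytoid dendritic cell genes and from 0.24 (Pax5) to 0.86 (Cd79b) over 3 B cell genes. Lower medians were those of the 7 T cell genes (0.56, from 0.25 for Cd8b1 to 0.83 for Cd3g), the 4 NK cell genes (0.53, from 0.29 for Eomes to 0.76 for Klrb1c) and the 4 neutrophil genes (0.30, from -0.19 for S100a8 to 0.56 for Csf3r). These values are descriptions over 10 tumors that share libraries, chosen after the data were examined.

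In the interferon types no relation of H2-Ab1 passed the adjusted threshold. For Flt3 r was 0.59 in B16-IFNA4 (rho 0.54) and 0.82 in B16-IFNA9 tumors (rho 0.70), with permutation adjusted p of 0.184 and 0.0604 for r. For Irf1 in B16-IFNA9 tumors r was 0.70 and rho 0.72 (permutation adjusted p = 0.0604 and 0.133), and for Rfx5 r lay between 0.06 and 0.23 in the 3 types. For Ptprc r was -0.34 in B16-IFNA4 (rho -0.16) and 0.36 in B16-IFNA9 tumors (rho 0.62), and for Csf1r 0.24 (rho 0.45) and 0.75 (rho 0.37), with permutation adjusted p of 0.0963 or more. Cd79a, of B cells, gave r of -0.15, 0.58 and -0.20 (rho -0.36, 0.35 and -0.33) in B16-GFP, B16-IFNA4 and B16-IFNA9 tumors, none past the threshold. The relations with Csf1r, Rfx5 and Irf1 were added after the data were examined.

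**Figure D5:**
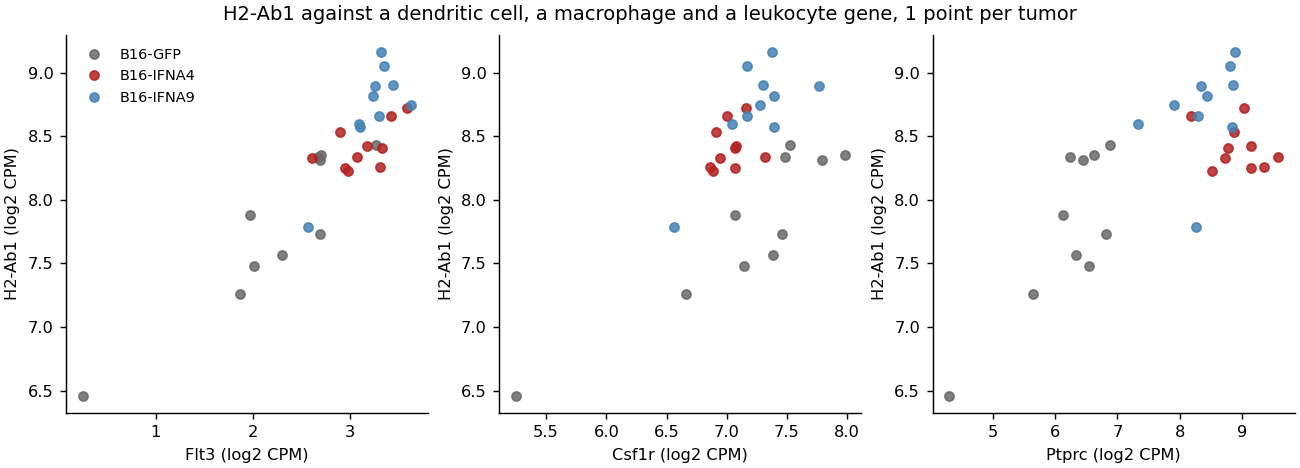
Log2 CPM of H2-Ab1 against that of Flt3, Csf1r and Ptprc, 1 point per tumor with a color for each type. In B16-GFP tumors H2-Ab1 follows Flt3 (r = 0.92) and Csf1r (r = 0.91) with tumor 7 at the lower left, and B16-IFNA9 points have more H2-Ab1 per Ptprc (mean log2 ratio 0.32) than B16-IFNA4 points (-0.52).

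The genes whose pattern was most like that of the class II genes, by Pearson's r over the 30 tumors with each type centred on its own mean, were Tap2 (0.92), Krt15 (0.92), H2-K1 (0.91), Itgb7 (0.91), 9530053A07Rik (0.90), Fcgbp (0.90), H2-T23 (0.90), Lamb3 (0.90), Coro1a (0.90) and Atp2a3 (0.90). Tap2 encodes a subunit of the class I peptide transporter, H2-K1 and H2-T23 are class I heavy chains, Itgb7 and Coro1a are leukocyte genes, and Krt15 and Lamb3 are genes of basal keratinocytes. The keratinocyte gene Krt15 was not called against B16-GFP in either interferon type (log2 fold changes 0.49 and 0.34), whereas Tap2 rose by 1.72 and 1.68. These values describe shared variation within types, over libraries that all genes share, and within B16-IFNA4 tumors they ran lower for some of the genes, down to 0.48 for Atp2a3 and 0.53 for H2-K1.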

How the data were processed

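RNA of 30 whole tumors, 10 per type, was sequenced in 50-base single-end reads from strand-marking mRNA libraries. Per the labels and methods, the authors checked reads with FastQC 0.11.3, aligned them with HISAT2 2.0.4 (build mm10 in the submitters' processing notes, mm11 in the methods) and obtained a count for each gene with summarizeOverlaps. They deposited raw counts, not normalized. Overlap mode, strand setting and annotation release are not given in the sources used here. Of 39676 identifiers, 39495 matched GENCODE M21, which gave symbols and coordinates. Promoter windows came from RefSeq.

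Genes whose mean count reached 10 were fitted with edgeR 4.0.16 in R 4.3.3 (TMM, quasi-likelihood, 30 tumors, common coefficient of biological variation 0.281), and called at an adjusted p under 0.05. Log2 CPM took a prior count of 2. Standard errors were derived from fold change and F statistic, and intervals are 1.96 standard errors. The fit was tested on simulated data. Log2 ratios added 0.5 to each count and were set against each other in permutation tests (two-sided, 100000 resamples), adjusted over 12 planned and 9 added tests. Planned ratios with Cd74 and Ciita, and relations with Ciita, Ifng and Adgre1, had no row and were not run. Limits for counts of 0 cover counting error only. Named genes were the members, genes of the pathway and marker lists (some are not reported here), and the 10 most alike by correlation. Members and lists were chosen with earlier results of these data known. No 2 libraries were alike within sampling noise. Plots used Python 3.11.15 and matplotlib 3.10.9. Alternatives were DESeq2 1.42.0, other scalings and filters, a minimum change of 2-fold, fits of only the types compared, a replicate block, and leaving out each tumor. Counts of marker genes without each tumor were added after seeing the data.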

Additional observations from a re-analysis of the deposited data

Results flagged for a closer look

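Of 39 groups of 10 tumors examined over the 3 types, 3 held a tumor far from the others, where chance would give 1.95. The 1.95 counts any tumor in any of the 39 groups and is not the chance value for a single tumor. In all 3 groups the tumor was B16-IFNA9 tumor 10, which lay below the other 9 of its type. Its H2-Aa level was 8.29 on the log2 CPM scale, with the nearest tumor at 9.14. Its H2-Ab1 level was 7.78 against 8.57 for the nearest tumor. Its log2 ratio of H2-Ab1 to B2m was -4.64 against -3.92. The 3 values come from 1 library and 2 of them share H2-Ab1, so they are not independent. Leaving this tumor out kept 4 and 6 class II genes called in B16-IFNA4 and B16-IFNA9 against B16-GFP tumors, and the log2 fold change of H2-Ab1 in B16-IFNA9 tumors was then 0.95 (edgeR adjusted p 2.66e-05).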

How the results depend on the processing

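Of the class II genes, 4, 6 and 1 were called in B16-IFNA4 minus B16-GFP, B16-IFNA9 minus B16-GFP and B16-IFNA9 minus B16-IFNA4. No log2 fold change of a class II gene changed sign under any alternative. With a test for a change of at least 2-fold, 0 were called in each comparison. Leaving out each tumor in turn gave 3 to 5, 6 to 6 and 0 to 2 calls. In B16-IFNA9 minus B16-IFNA4, 2 genes were called without B16-GFP tumor 7 and 0 without B16-IFNA9 tumor 2 or 8, and with only the 2 types compared 4 were called. With the replicate number as a block 0 were called in that comparison (H2-DMa 0.61, edgeR adjusted p 0.0661), and 10 same-numbered pairs correlated at -0.27 to 0.30 over the comparisons, over 0.1 in 2, 2 and 0, and not every tumor correlated best with its own number, so the numbers were not taken to pair the tumors. In B16-IFNA4 minus B16-GFP, H2-Aa was not called with no filter (edgeR adjusted p 0.0505) and H2-Eb1 was called with library totals (0.44, edgeR adjusted p 0.0463). Each ratio kept its side of the threshold with 2 added to each count and without B16-GFP tumor 7.

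Over all genes, library totals in place of TMM moved the median log2 fold change of B16-IFNA9 minus B16-GFP by 0.10, and 5051 genes were then called higher and 3610 lower, against 4281 and 4595. With only the 2 types compared, B16-IFNA9 minus B16-IFNA4 gave 2346 higher and 1986 lower against 1679 and 1154, and the 2-fold test gave 800 and 452, 538 and 111, and 30 and 21 in the 3 comparisons against 4977 and 5435, 4281 and 4595, and 1679 and 1154. Among the 33 other genes of the pathway lists, 41 values changed sign where neither fit called them, 39 calls were lost and 16 gained in fits that left out a tumor, and 57 were lost and 8 gained in other settings. Genes under about 1 CPM, such as H2-Oa and the B cell markers, rest on few counts.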
